A study of Mus musculus with 7 samples.

Results

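The genes described here encode the nuclear subunits of respiratory complexes II, III and IV and of ATP synthase, with cytochrome c and the ATP synthase inhibitor. They were taken by symbol from the protein-coding rows of the expression table (the Sdha to Sdhd, Uqcr, Cyc1, Cycs, Cox4i to Cox8, Atp5 and Atpif1 names), which gave 48 of 26019 rows. There were 4 genes of complex II, 9 of complex III, 1 of cytochrome c, 17 of complex IV, 5 of the catalytic F1 part of ATP synthase, 11 of its membrane part and stalk, and 1 inhibitor. RNA was measured in oocytes taken out of secondary follicles, the stage at which a growing oocyte lies inside layers of granulosa cells, by Smart-Seq2, which amplifies full-length cDNA from few cells.

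Wild type mice (WT, n = 4 libraries) were compared with mitofusin 2 knockouts (Mfn2-/-, KO, n = 3 libraries), both on C57BL/6J, and each library pooled 5 oocytes. The protocol gives an age of 8 weeks for both groups, whereas the age label reads P1. The title and design name Mfn2, whereas Mfn1, a second mitofusin, stands in the protocol and the genotype field. The design counts 3 mice in each group against the 4 WT libraries, and the labels name no promoter or Cre line behind the deletion. Since the mice behind each library are not named, a p-value here covers only the spread between libraries, which may be technical.

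Mfn2, the GTPase that fuses outer mitochondrial membranes, had normalised counts of 35.27, 35.15, 14.95 and 29.24 in WT 1 to 4 and of 7.268, 4.546 and 7.658 in KO 1 to 3. It was lower in every KO library (limma log2 fold change -1.94, SE 0.40, adjusted p = 0.00571), whereas Mfn1 did not pass the test (log2 fold change 0.20, SE 0.16, adjusted p = 0.499). The targeted gene thus went with the title and not with the genotype label. A normalised count is the number of reads of a gene divided by the size factor of its library. The libraries held 6676076 to 8343915 reads in the table. The 12 oocyte markers were all tested and none was called different. They summed to 172787 to 242248 normalised counts in WT and to 210084, 364031 and 237662 in KO 1, 2 and 3. Of 20 granulosa cell markers, 19 were in the table, 17 were tested, and 1 was called in each direction. Their summed level was 3082 to 4187 in WT and 3756, 5184 and 4527 in KO 1, 2 and 3, most of it from Serpine2. The KO mean was above the WT mean for 16 of the 19 and below it for 3. Cyp19a1, the aromatase, was called lower, at 150.6 to 218.3 in WT and 98.11, 50 and 86.42 in KO, and Nr0b1 was called higher, at up to 1.065 in WT and 0.9085, 14.55 and 6.564 in KO. Inha, named with its values known, was at 11.91 to 66.73 in WT and 54.51, 394.6 and 338 in KO. The markers Amh and Inhbb were at or near 0 in WT, with at most 8.182 in KO 2. Gatm, also named with its values known, was at 0 to 20.97 in WT and 14.54, 140 and 64.54 in KO. Of 8 blood cell markers, 3 were in the table, and they did not move together. C1qb was lower in KO, at 172.8 to 248 against 513.1 to 554.6. Cd68 was at 10.28 to 14.08 in WT and 27.25, 18.18 and 9.846 in KO, and C1qa was seen only in WT 3, at 3.739.

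Complex II oxidises succinate in the citric acid cycle and passes the electrons to ubiquinone. Complex III moves them on to cytochrome c, complex IV hands them to oxygen, and both pump protons, whose return through the membrane ring of ATP synthase drives the F1 part to make ATP. Several subunits of complex IV and the ring subunit of ATP synthase are encoded by more than one gene, with isoforms named for heart and muscle, lung or testis. Growing oocytes rely on mitochondrial ATP, and the granulosa cells around them supply pyruvate.

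The ring of ATP synthase is built from subunit c, and 3 genes, Atp5g1, Atp5g2 and Atp5g3, encode the same mature protein with different import sequences. Since 1 of them was called higher in KO and the other 2 did not pass the test, their upstream sequences are shown. They were taken from RefSeq on build GRCm38.p6 as the 250 bases before each annotated start, 5′ to 3′ on the strand of the gene. They lie at chr11:96075632-96075881 (Atp5g1), chr15:102671048-102671297 (Atp5g2) and chr2:73911327-73911576 (Atp5g3), all on the minus strand. Capitals mark CCAAT on either strand (written ATTGG on the other) and GCGCATGC (GCATGCGC on the other), part of the sequence bound by NRF1, a factor known for regulating respiratory chain genes. The NRF1 motif was shortened to 8 letters after the promoters had been searched.
Atp5g1: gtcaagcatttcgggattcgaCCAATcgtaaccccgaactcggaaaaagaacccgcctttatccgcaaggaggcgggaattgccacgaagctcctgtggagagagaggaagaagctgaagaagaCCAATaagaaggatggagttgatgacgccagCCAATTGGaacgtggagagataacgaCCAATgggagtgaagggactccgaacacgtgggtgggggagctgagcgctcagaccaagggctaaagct
Atp5g2: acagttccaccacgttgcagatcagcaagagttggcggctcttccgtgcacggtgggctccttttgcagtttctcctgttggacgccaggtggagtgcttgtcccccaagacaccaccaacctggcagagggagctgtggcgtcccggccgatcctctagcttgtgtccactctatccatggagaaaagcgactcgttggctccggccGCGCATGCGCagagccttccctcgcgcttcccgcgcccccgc
Atp5g3: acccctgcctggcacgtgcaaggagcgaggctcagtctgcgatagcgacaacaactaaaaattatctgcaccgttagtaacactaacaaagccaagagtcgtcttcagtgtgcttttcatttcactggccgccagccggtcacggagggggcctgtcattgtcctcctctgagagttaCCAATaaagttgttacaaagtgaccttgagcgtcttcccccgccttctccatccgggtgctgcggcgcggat
The Atp5g1 stretch held 5 matches to CCAAT, a pair of which overlap on opposite strands, and Atp5g3 held 1. Atp5g2 held 2 overlapping matches to GCGCATGC, on opposite strands, and no CCAAT. Over the 35 of 48 genes with an entry in the RefSeq promoter table, GCGCATGC occurred in 6 (17.1%), namely Atp5g2, Atp5k, Atp5l, Cox6a1, Cycs and Sdhb, against 741 of all 32851 promoters (2.26%). CCGGAAGT, an ETS factor motif searched on both strands, occurred in Atp5h, Uqcr11 and Uqcrh, 3 of 35 (8.57%), against 945 promoters (2.88%). CCAAT occurred in 19 of 35 (54.3%) against 11120 promoters (33.8%). Each of the 35 genes was counted at 1 start, whereas the background counts every RefSeq promoter entry of full length. None of the 6 genes with GCGCATGC and none of the 3 with CCGGAAGT was called different between KO and WT. Since 6.71% of all genes tested were called, so few genes cannot show a link between motif and call. Of the called members, Atp5g3 had an entry and held CCAAT, and Cox6a2 had no entry. These matches describe letters in a window and say nothing of binding.

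In WT oocytes the genes spanned a wide range of levels per transcript length. The highest normalised count per kilobase was that of Atp5e, the epsilon subunit of F1, at 7321 (mean of 4 WT libraries), followed by Cox4i1 at 4754, Uqcrh, the hinge protein of complex III, at 4459, and Cox5a at 4038. At the other end stood isoforms named for other tissues, with Cox7a1 at 10.51 and Cox8c at 17.07 per kilobase. Cox4i2, the second isoform of subunit 4, was at 53.39 and Atp5s, coupling factor B, at 43.97. Cox8b, the heart and muscle isoform of subunit 8, had 1 read in all 7 libraries, in WT 2, and was not tested. Within complex II, Sdhd, a membrane anchor, was at 2177 per kilobase and Sdhb, the iron-sulfur subunit, at 896.4, whereas Sdha, the flavoprotein that oxidises succinate, was at 203 and the other anchor Sdhc at 208.8. Within complex III the catalytic subunit cytochrome c1, Cyc1, had the lowest level, 118.9 per kilobase.

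**Figure D1:**
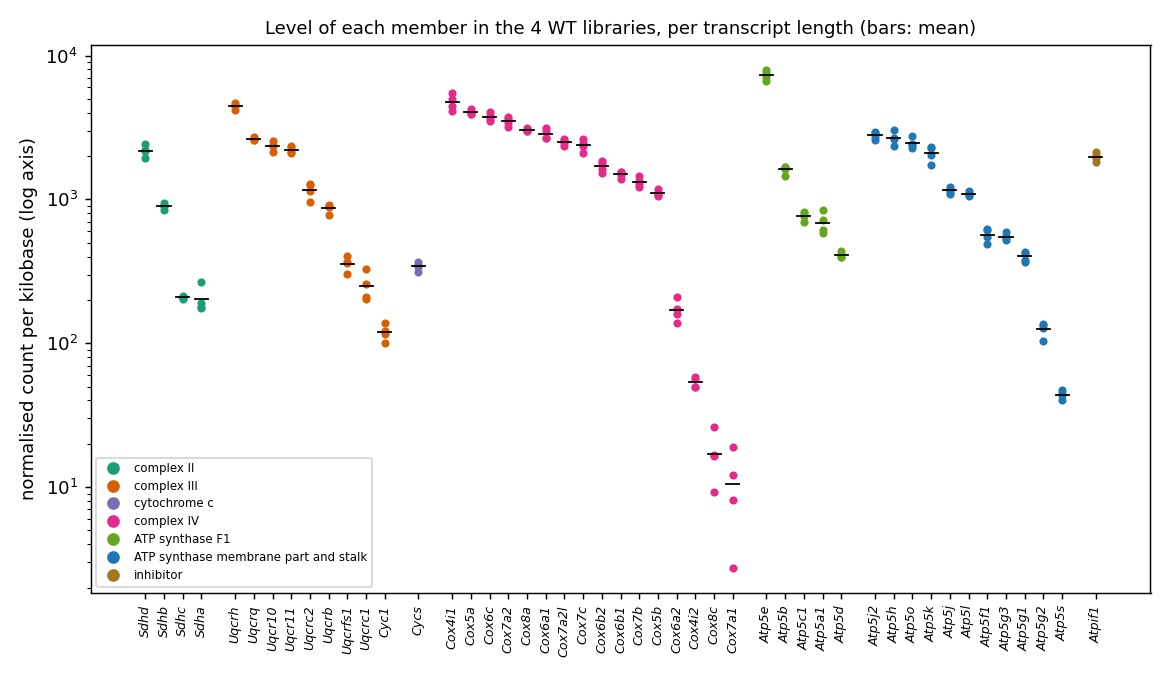
Normalised count per kilobase of transcript (log axis) in the 4 WT libraries for 47 genes, grouped by complex; each point is a library and each bar the mean of 4. Atp5e stood highest at 7321 and Cox7a1 lowest at 10.51, and in complex IV the isoforms Cox6a2, Cox4i2, Cox8c and Cox7a1 lay below all other subunits.

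Between KO and WT, 1 of the 47 genes tested was called higher and 1 lower, and 45 did not pass the test. In such bulk libraries, fewer cells of a type and less RNA per cell cannot be told apart. A gene is called where its adjusted p from limma, over all 19227 genes tested, is under 0.05. Of all genes tested, 6.71% were called, 3.09% higher and 3.63% lower. By edgeR 6.53% and by DESeq2 9.74% of genes with an adjusted p were called. The gene higher in KO was Atp5g3, and the gene lower in KO was Cox6a2, the heart and muscle isoform of complex IV subunit 6A. The median log2 fold change over the 47 was 0.05, with 24 positive and 23 negative, against -0.01 over all genes tested. Differences were small for most members: 36 of 47 (76.6%) lay within 0.25 of 0 on the log2 scale, against 40.8% of all genes tested. Among genes averaging at least 100 normalised counts, the shares were 80.5% of 41 members and 58.2% of 7480 genes. Many members lay far above this floor, and no background matched more closely in level was computed.

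**Figure D2:**
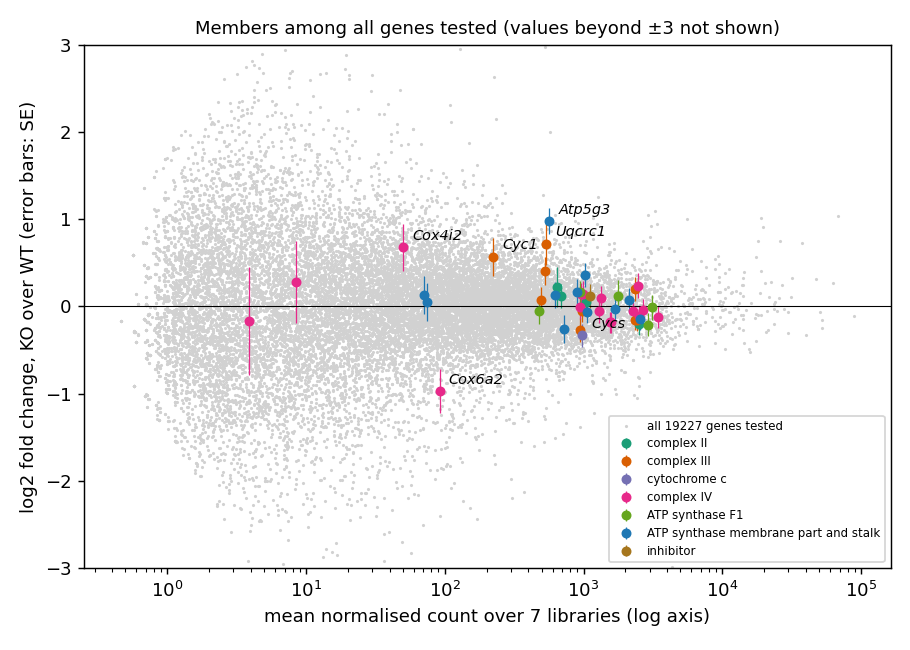
Log2 fold change of KO over WT against the mean normalised count over 7 libraries (log axis) for all 19227 genes tested (grey) and the 47 members (coloured by complex, error bars are the SE of the fit). Atp5g3 at 0.98 and Cox6a2 at -0.97 lie farthest from 0, and 36 of the 47 lie within 0.25.

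The KO and WT libraries did not overlap for 4 members that were higher in KO (Atp5g3, Atp5f1, Uqcrb and Cox4i2) and for 4 that were lower (Cox6a2, Cycs, Cox6a1 and Cox8a). Of all genes tested, 9.37% were non-overlapping with KO higher and 9.83% with KO lower. At an unadjusted p under 0.05, 6 members were higher and 2 lower, against 10.6% and 11.2% of all genes tested. The members' counts, 4 of 47 in each direction for non-overlap, were close to these background shares.

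The 4 genes of complex II did not pass the test, and their groups overlapped. The smallest p was that of Sdhd, which had 2707, 2649, 2397 and 2969 normalised counts in WT and 2216, 2643 and 2140 in KO. KO 1 and KO 3 lay below every WT library, and KO 2 lay inside the WT range (2680 ± 235, SD, n = 4, against 2333 ± 271, n = 3; log2 fold change -0.20, SE 0.13, adjusted p = 0.369). Sdha, chosen after its values were seen, had 554.8, 505.9, 518.7 and 775.5 in WT and 539.6, 1038 and 547 in KO, so that KO 2 alone stood above the WT libraries.

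None of the 9 genes of complex III was called, although Uqcrc1 had the largest difference of the 47 genes after Atp5g3 and Cox6a2. Uqcrc1, core protein 1, lies at chr9:108936633-108949623 (GRCm38, plus strand). It had 348.9, 426, 333.7 and 542.6 in WT and 593.2, 1034 and 485.7 in KO. KO 2 was the highest library, and KO 3 fell inside the WT range (413 ± 95.5, n = 4, against 704 ± 290, n = 3). The fitted log2 fold change was 0.72 (SE 0.25, adjusted p by limma = 0.107), and edgeR (adjusted p = 0.0379) and DESeq2 (adjusted p = 0.0164) on the recovered reads called it. Cyc1, which carries the heme that reduces cytochrome c and was chosen after its values were seen, had a like order of libraries. It had 176.4, 209.8, 151.4 and 185.2 in WT and 238.9, 417.3 and 191.4 in KO (limma log2 fold change 0.57, SE 0.22, adjusted p = 0.129; 0.0348 without KO 3 and 0.543 without KO 2). Leaving out KO 2 lowered the log2 fold change of Cyc1 to 0.25 and that of Uqcrc1 to 0.41.

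Uqcrb, a small subunit near the ubiquinone site, showed another order. Its normalised counts were 471.9, 415.4, 486 and 478.7 in WT and 533.3, 554.6 and 784.4 in KO. All KO libraries lay above all WT libraries, KO 3 farthest (463 ± 32.3, n = 4, against 624 ± 139, n = 3; limma log2 fold change 0.41, SE 0.16, adjusted p = 0.117). Without KO 3 the log2 fold change of Uqcrb was 0.23 (adjusted p = 0.383), and after adjustment for granulosa marker level it was 0.18 (0.93). Marker level largely followed the groups, and the adjusted fit called 2 of all 19227 genes and not Mfn2. A result of that fit therefore says little about any 1 gene. Of the annotated 75-base stretches of Uqcrb, 16.7% also occur in other annotated transcripts, pseudogenes among them. The most abundant gene of the complex per length, Uqcrh, had 2453, 2291, 2538 and 2474 in WT and 2044, 2026 and 2580 in KO. KO 1 and KO 2 lay below the WT libraries and KO 3 above (log2 fold change -0.15, SE 0.12, adjusted p = 0.537). The small subunits Uqcrq and Uqcr10 likewise had KO 1 and KO 2 below all WT libraries, without passing the test. Uqcrfs1, the Rieske iron-sulfur protein, had no KO library outside the WT range.

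Cycs, the mobile carrier cytochrome c, had 1149, 982, 1064 and 1090 in WT and 862.1, 758.2 and 944.1 in KO. Every KO library was below every WT library (1071 ± 69.2, n = 4, against 855 ± 93.2, n = 3). The gene did not pass the test (limma log2 fold change -0.33, SE 0.13, adjusted p = 0.143). Cycs shares 23.9% of its 75-base stretches with other annotated genes, among them the retrocopy row Gm10053. That row, chosen after its values were seen, held 2029 to 2289 normalised counts in WT and 1723, 1382 and 1893 in KO (adjusted p = 0.0666). How reads were divided between both rows was not tested. Cyct, the testis cytochrome c, was low and alike, at 39.9 ± 8.55 in WT and 40.2 ± 3.59 in KO.

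In complex IV, 1 of 16 genes tested was lower in KO, and 15 did not pass. Cox6a2 lies at chr7:128205435-128206387 (GRCm38, minus strand) and had 93.43, 117.2, 142.1 and 109.4 normalised counts in WT and 58.14, 39.09 and 85.33 in KO. All 3 KO libraries lay below all 4 WT libraries, KO 2 lowest (116 ± 20.3, n = 4, against 60.9 ± 23.2, n = 3). The fitted log2 fold change was -0.97 (SE 0.25, adjusted p by limma = 0.024), on 646 reads in all 7 libraries. The call was lost without WT 2, WT 3 or KO 2 (adjusted p = 0.0613, 0.0918 and 0.124), and after adjustment for the granulosa marker level of each library (log2 fold change -0.73, adjusted p = 0.819). The adjusted fit called 2 of all 19227 genes and not Mfn2, so that a call lost in it says little about Cox6a2. The Cox6a2 row overlaps Itgad on the other strand, which had at most 1.083 normalised counts in any library. Muscle markers summed to 1.083 to 15.25 in WT and 0.9091 to 6.359 in KO. The general isoform Cox6a1 had 1517, 1517, 1704 and 1789 in WT and 1402, 1471 and 1427 in KO. Its groups did not overlap either, with a smaller difference (log2 fold change -0.18, SE 0.12, adjusted p = 0.416). Per transcript length Cox6a2 made up 5.61% ± 0.839 (SD, n = 4) of subunit 6A transcripts in WT and 3.44% ± 1.3 (n = 3) in KO.

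Cox4i2, the isoform of subunit 4 known for its role in the lung, differed in the other direction from Cox6a2. It had 40.99, 36.21, 36.45 and 42.24 in WT and 43.61, 87.28 and 65.64 in KO, so that KO 1 exceeded the highest WT library by little and KO 2 by the most. The difference did not pass the test (39 ± 3.1, n = 4, against 65.5 ± 21.8, n = 3; limma log2 fold change 0.68, SE 0.27, adjusted p = 0.134). Without KO 1 the log2 fold change was 0.94 (adjusted p = 0.0398), without KO 2 it was 0.45 (0.447), and after adjustment for granulosa marker level 0.04 (0.993). As stated for Cox6a2, the adjusted fit called 2 of all 19227 genes and says little about any 1 gene. Cox4i1, the general isoform, had 3738, 3363, 3104 and 4153 in WT and 2763, 3596 and 3544 in KO. KO 1 was the lowest library and the others lay inside the WT range (log2 fold change -0.12, SE 0.13, adjusted p = 0.647). Cox4i1 was the main isoform, at 98.9% ± 0.0656 of subunit 4 transcripts per length in WT and 98% ± 0.43 in KO. Its row overlaps Emc8 on the other strand, which was called lower in KO (log2 fold change -0.48, adjusted p = 0.023), and the libraries do not mark strand.

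Subunit 6B showed the testis isoform at a level like that of the general one. Cox6b2 had 990.5, 845.7, 904.8 and 1029 in WT and 814.9, 1096 and 1238 in KO. Cox6b1 had 959.1, 861.7, 905.7 and 960.7 in WT and 893, 1052 and 1118 in KO. In both genes KO 3 was the highest library and the groups overlapped (log2 fold change 0.14, SE 0.15, adjusted p = 0.643 for Cox6b2, and 0.14, SE 0.13, 0.578 for Cox6b1). Per transcript length Cox6b2 made up 53.3% ± 0.959 of subunit 6B transcripts in WT and 53.2% ± 2.47 in KO. Cox6b2 shared no 75-base stretch with another gene. The male germ line markers, of which 4 of 5 were in the table, summed to 72.57 to 134.6 normalised counts in WT and 61.82 to 111.6 in KO.

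The heart and muscle isoform Cox7a1 was nearly absent, with 4.767, 3.195, 7.477 and 1.083 in WT and 5.451, 0.9091 and 4.376 in KO, on 28 reads in all. A change of its level was not detectable at this depth (log2 fold change -0.17, SE 0.62, adjusted p = 0.911). The general isoform Cox7a2 had 2400, 2232, 2473 and 2115 in WT and 1947, 2012 and 2806 in KO, with 2 KO libraries below and 1 above all WT libraries (log2 fold change -0.05, SE 0.14, adjusted p = 0.877). Cox7a2l, which helps to join complexes III and IV, had 2789, 2817, 2517 and 2639 in WT and 2353, 2526 and 3009 in KO (log2 fold change -0.04, SE 0.12, adjusted p = 0.892). In both genes KO 1 was lowest and KO 3 highest of the 7 libraries. Cox7b had 1337, 1283, 1449 and 1214 in WT and 1099, 1214 and 1535 in KO, and its groups overlapped (log2 fold change -0.05, SE 0.14, adjusted p = 0.864). Its paralog Cox7b2 is not analysed here.

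Subunit 8 was almost wholly Cox8a, at 99.4% ± 0.185 of subunit 8 transcripts per length in WT and 99.2% ± 0.169 in KO. Cox8a had 1727, 1642, 1632 and 1682 in WT and 1353, 1477 and 1619 in KO. The groups did not overlap, with KO 3 just below the lowest WT library (1671 ± 43.4, n = 4, against 1483 ± 133, n = 3; log2 fold change -0.18, SE 0.12, adjusted p = 0.436). The testis isoform Cox8c had 7.627, 4.26, 7.477 and 11.91 in WT and 6.359, 10 and 12.03 in KO (log2 fold change 0.28, SE 0.47, adjusted p = 0.785). The remaining subunits Cox5a, Cox5b, Cox6c and Cox7c overlapped between the groups and did not pass, with adjusted p from 0.314 (Cox6c) to 0.967 (Cox5b).

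**Figure D3:**
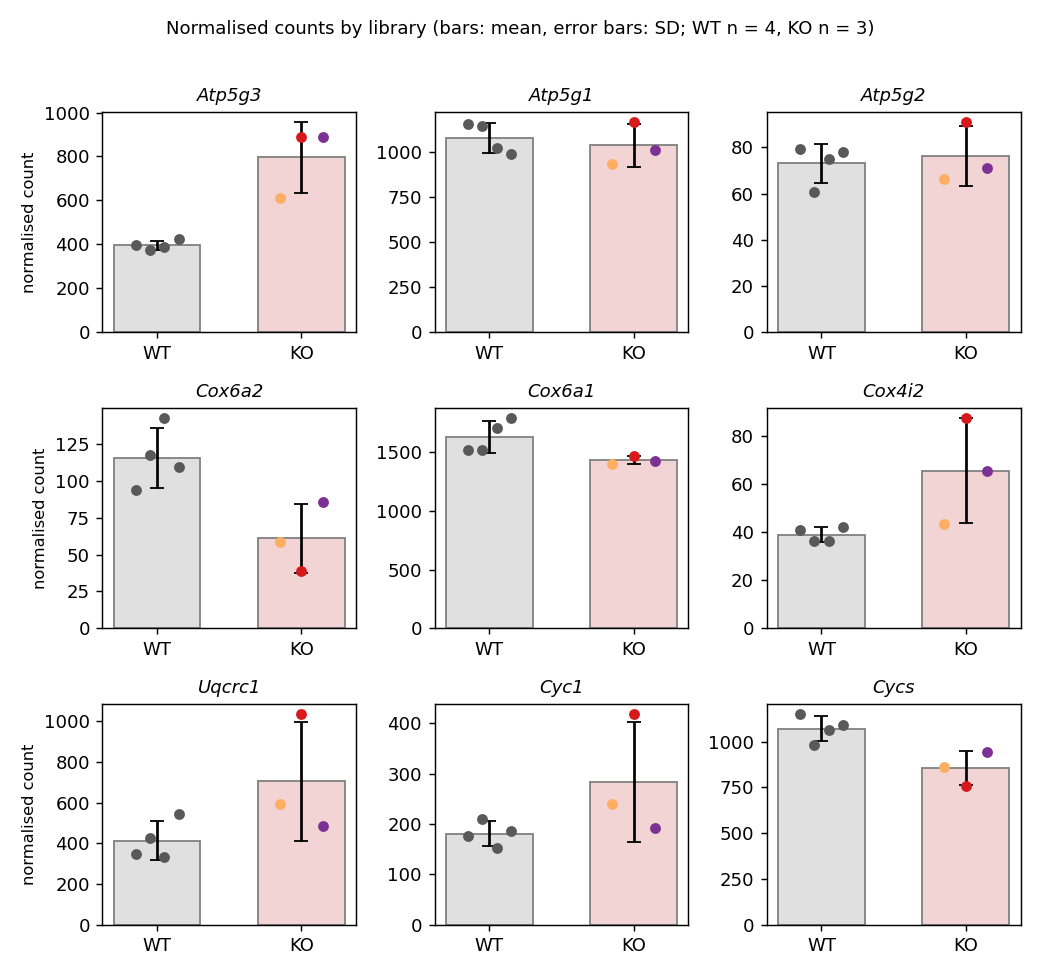
Normalised counts of 9 genes in each library, with the mean (bar) and SD (error bar) of 4 WT and 3 KO libraries; KO 1 is orange, KO 2 red and KO 3 purple. Atp5g3 is above the WT libraries and Cox6a2 below them in all 3 KO libraries, while Uqcrc1 and Cyc1 are highest in KO 2.

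None of the 5 genes of the F1 part passed the test, and their groups overlapped. Atp5e had 3202, 2785, 3363 and 2978 in WT and 2348, 2426 and 3282 in KO. KO 1 and KO 2 lay below the WT libraries and KO 3 inside their range (3082 ± 253, n = 4, against 2685 ± 518, n = 3; log2 fold change -0.21, SE 0.13, adjusted p = 0.377). The catalytic beta subunit Atp5b, chosen after its values were seen, averaged 3091 ± 201 in WT and 3106 ± 681 in KO, with KO 2 at 3892 above every WT library and KO 1 and KO 3 below. The alpha subunit Atp5a1, likewise chosen, had 2586 in KO 2 against 1447 to 2076 in WT, with KO 1 and KO 3 inside the WT range. Atp5c1, the gamma subunit of the rotating shaft, averaged 899 ± 63.4 in WT and 1006 ± 75.2 in KO (adjusted p = 0.509), and Atp5d, the delta subunit, 481 ± 21.7 and 469 ± 74.2 (adjusted p = 0.891).

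In the membrane part and stalk, 1 of 11 genes was higher in KO. Atp5g3 lies at chr2:73908447-73911326 (GRCm38, minus strand) and had 398.5, 374.9, 388.8 and 423.5 normalised counts in WT and 609.6, 887.3 and 889.4 in KO. Every KO library exceeded every WT library, and KO 1 was closer to WT than KO 2 and KO 3 were. The mean was 396 ± 20.5 (n = 4) in WT and 795 ± 161 (n = 3) in KO, 2.01-fold higher. The fitted log2 fold change was 0.98 (SE 0.15, adjusted p by limma = 0.000814), and the call held without any single library (adjusted p = 9.92e-05 to 0.00569). No 75-base stretch of Atp5g3 occurs in another annotated gene. With KO 2 and KO 3 both left out, KO 1 stands alone and is assumed to vary like the WT libraries, and the log2 fold change was 0.62 (adjusted p = 0.165). After adjustment for granulosa marker level as a covariate it was 0.58 (adjusted p = 0.724), in a fit where 2 of all 19227 genes were called and 1220 had an unadjusted p under 0.05. The mean log2 level of the granulosa markers was 2.39 to 3.25 in WT and 3.25, 4.46 and 4.22 in KO 1, 2 and 3. The part of granulosa cell RNA in the difference was not tested further.

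The other genes for subunit c did not move with Atp5g3. Atp5g1 had 1156, 1141, 1018 and 987.8 in WT and 930.3, 1164 and 1010 in KO, with overlapping groups (1076 ± 85.3, n = 4, against 1035 ± 119, n = 3; log2 fold change -0.06, SE 0.13, adjusted p = 0.844). Of its 75-base stretches 7.29% occur in other genes, among them the pseudogene row Gm10039. That row held 1090 to 1296 in WT and 941.2 to 1187 in KO, so that the count of Atp5g1 is uncertain too. Atp5g2 was low, at 79.13, 60.71, 74.77 and 77.99 in WT and 66.32, 90.91 and 71.11 in KO (log2 fold change 0.05, SE 0.22, adjusted p = 0.927). Of Atp5g2's 75-base stretches 35.8% occur in other genes, among them the retrocopy row Gm10175, which held 966.5 to 1085 in WT and 985.7 to 1179 in KO, so that its count is uncertain. The summed normalised count of the 3 genes was 1545 ± 73.1 in WT and 1906 ± 274 in KO. Per transcript length Atp5g3 made up 49.4% to 54% of subunit c transcripts in the WT libraries and 64.8%, 67.7% and 71.3% in KO 1, 2 and 3. These shares rest on 2676 bases as the length of Atp5g1, the median of principal transcripts of very unequal length. The sum and the shares leave out the rows Gm10039 and Gm10175. In WT these stood at 2851 and 1907 per kilobase, against 551.8 for Atp5g3. The sum and the shares therefore depend on how reads were divided among these rows, which was not tested.

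Atp5f1, subunit b of the peripheral stalk, had 980, 877.6, 790.7 and 1002 in WT and 1045, 1220 and 1242 in KO. Every KO library lay above every WT library (913 ± 97.6, n = 4, against 1169 ± 108, n = 3; limma log2 fold change 0.36, SE 0.14, adjusted p = 0.115). After adjustment for granulosa marker level the log2 fold change was 0.16 (adjusted p = 0.93), in the fit that called 2 of all 19227 genes. The Atp5f1 row overlaps Wdr77 on the other strand, which held 4.542 to 12.73 normalised counts. Atp5j2, subunit f and the most abundant gene of the membrane part and stalk per length, had 2759, 2454, 2816 and 2610 in WT and 2106, 2228 and 3002 in KO (log2 fold change -0.14, SE 0.13, adjusted p = 0.599). KO 1 and KO 2 lay below the WT libraries and KO 3 above. Atp5j, coupling factor 6, averaged 856 ± 42.2 in WT and 971 ± 161 in KO (adjusted p = 0.514). Its row overlaps Gabpa, which encodes a factor known for binding respiratory gene promoters and which was called higher in KO, at 43 to 59.57 in WT and 95.39, 150 and 118.1 in KO (log2 fold change 1.21, adjusted p = 0.00326). Gabpa is named with its values known, and how reads were divided between both rows was not tested.

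The other stalk and membrane genes Atp5h, Atp5k, Atp5l, Atp5o and Atp5s overlapped between the groups, with adjusted p from 0.338 (Atp5k) to 0.931 (Atp5h). The Atp5o row covers 2 annotated genes of that name, and 34.2% of its stretches are shared. Atpif1, which blocks ATP hydrolysis by a reversed ATP synthase, had 976.2, 1047, 1158 and 1100 in WT and 999.3, 1126 and 1385 in KO. Only KO 3 lay above the WT libraries (1070 ± 77.5, n = 4, against 1170 ± 197, n = 3; log2 fold change 0.12, SE 0.14, adjusted p = 0.675). Of its 75-base stretches 19.9% occur in the antisense gene Gm12999.

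**Figure D4:**
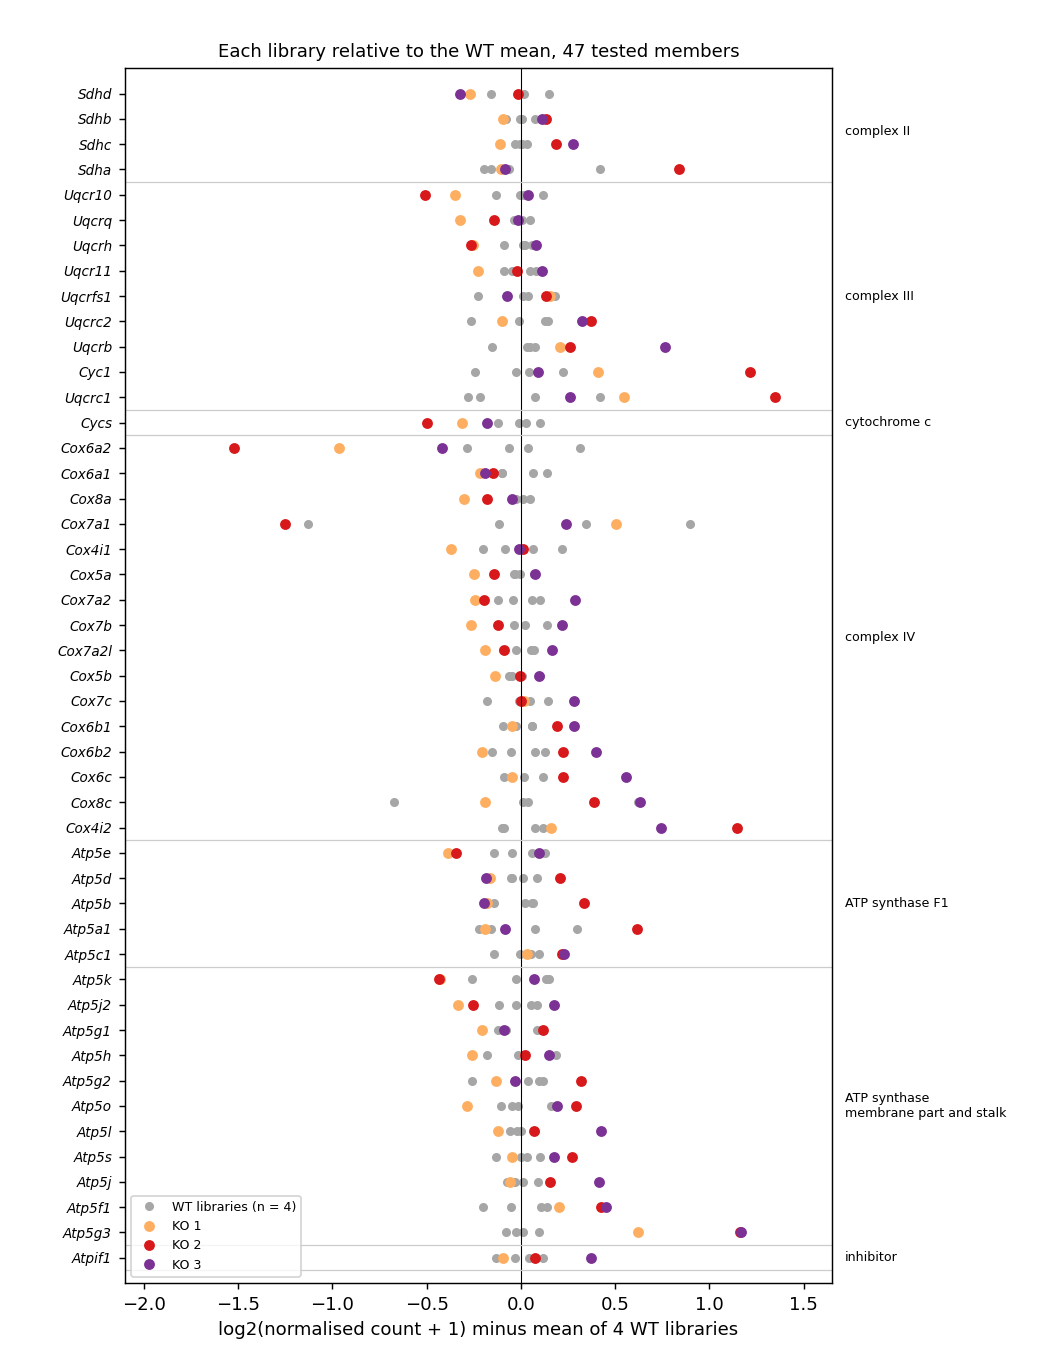
Log2(normalised count + 1) in each library minus the mean of the 4 WT libraries, for the 47 genes tested, ordered by complex and fold change; WT libraries are grey. KO 1 (orange) is left of all WT libraries in 27 genes and right of them in 6. KO 2 (red) and KO 3 (purple) are right of all WT libraries in 22 and 25 and left of them in 14 and 7.

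The 3 KO libraries differed from each other in these genes. KO 1 was the lowest of all 7 libraries for 19 of the 47 genes, below all WT libraries for 27 and above them for 6. KO 2 was the highest for 13, above all WT libraries for 22 and below them for 14. KO 3 was the highest for 20, above all WT libraries for 25 and below them for 7. Shares over all genes tested were not computed for these counts, so whether they are particular to the members is not known. The median log2 difference from the WT mean over the 41 genes averaging at least 100 normalised counts was -0.19 in KO 1, 0.08 in KO 2 and 0.11 in KO 3, against -0.01, 0.02 and 0.00 over all genes of that level. The members made up 0.775% of counts in KO 1, 0.833% in KO 2 and 0.884% in KO 3, and 0.824% to 0.873% in WT.

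Members with long transcripts lay high in KO 2. The 10 members of at least 1400 bases had a median log2 difference from WT of 0.40 in KO 2, against -0.11 in KO 1 and 0.00 in KO 3, and all genes of that length and level had 0.04, 0.04 and -0.01. Uqcrc1, Cyc1, Sdha and Atp5a1 were each highest in KO 2, while Cycs, also long, was lowest there. The 20 members under 800 bases had -0.22 in KO 1, 0.01 in KO 2 and 0.21 in KO 3, against -0.25, -0.11 and 0.08 for all such genes, so that the low values of the short members in KO 1 were near those of all short genes. Across the 41 genes, Spearman's rho of the difference with length was 0.25 in KO 1, 0.46 in KO 2 and -0.30 in KO 3. WT 1 to 4, each set against the other WT libraries, had 0.13, 0.41, -0.57 and 0.08. Over 7478 genes of that level, rho was 0.32, 0.01 and 0.09 in KO 1 to 3 and -0.06, 0.05, 0.19 and -0.14 in WT 1 to 4. Genes in 1 library share its depth and amplification and are no replicates, and the part of length in the differences was not tested.

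**Figure D5:**
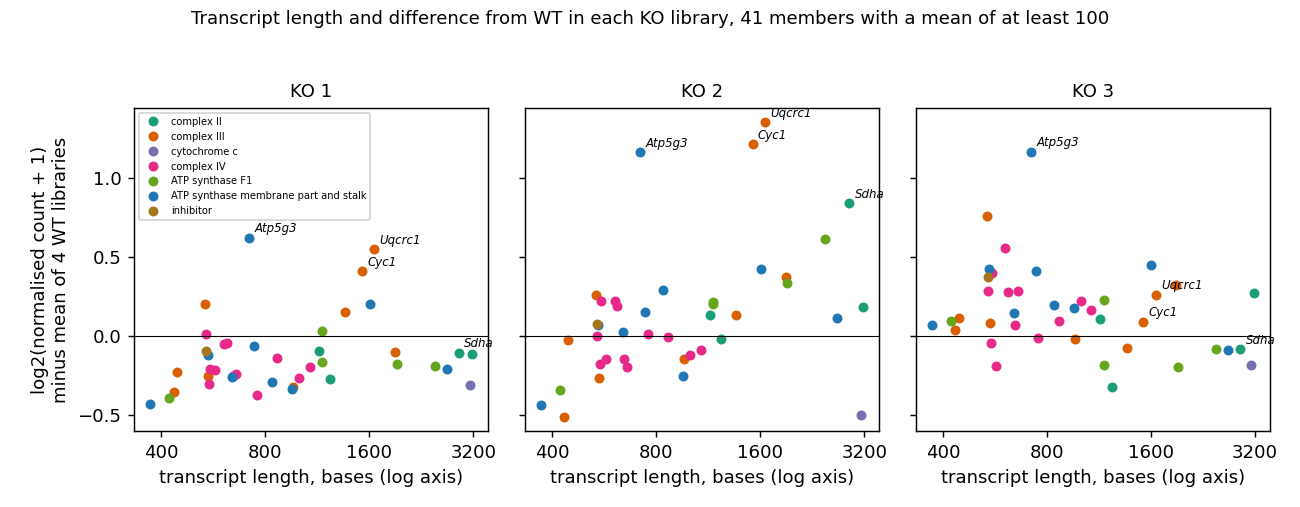
Transcript length (bases, log axis) against the difference of each KO library from the WT mean, log2(normalised count + 1), for the 41 genes averaging at least 100 normalised counts, coloured by complex. In KO 2 the long transcripts Uqcrc1, Cyc1 and Sdha lie high, in KO 3 they do not, and Atp5g3 is high in all 3 libraries.

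Genes for assembly factors and for subunits outside the name rule were listed separately, and 47 of 49 were in the table and tested. By limma 0 were called higher and 1 was called lower, and edgeR and DESeq2 likewise called 0 higher. In the limma fit 1 of 47 had an unadjusted p under 0.05 in the higher direction and 7 in the lower. Of all genes tested, 3.09% and 3.63% were called, and 10.6% and 11.2% had such a p, higher and lower. Fmc1, an assembly factor of the F1 part, had 493.8, 416.5, 421.5 and 487.4 in WT and 331.6, 303.6 and 316.2 in KO. Every KO library was below every WT library (455 ± 41.5, n = 4, against 317 ± 14, n = 3; limma log2 fold change -0.52, SE 0.15, adjusted p = 0.0383). The call was lost when any 1 of the WT libraries, KO 2 or KO 3 was left out, with an adjusted p of at most 0.114. Sdhaf1, which helps to insert the iron-sulfur clusters of complex II, had 318.4, 306.8, 281.3 and 402.9 in WT and 268.9, 250 and 176.1 in KO, and its groups did not overlap (log2 fold change -0.51, SE 0.18, adjusted p = 0.0946). It was -0.32 without KO 3 (adjusted p = 0.308), and 68.7% of the 75-base stretches of Sdhaf1 occur in 1 other gene, so that its count is uncertain. Cox14, which takes part in making the core of complex IV, had 2050, 2098, 1910 and 2179 in WT and 1606, 1636 and 1656 in KO, again without overlap (log2 fold change -0.33, SE 0.12, adjusted p = 0.095). In all, 1 of the 47 did not overlap with KO higher and 7 with KO lower, against the background shares of 9.37% and 9.83%. Their median log2 fold change was 0.01. The assembly genes called at other settings are few: Uqcc3 without KO 1, Ndufa4 after removal of the length trend, Cox14 with scaling to library totals, and Lrpprc in place of Fmc1 without KO 2 and KO 3.

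The table holds no row of the mitochondrial chromosome, so the core subunits of complexes III and IV and of ATP synthase that it encodes were not analysed here. Of the 48 genes, 25 share no 75-base stretch with another annotated gene, and 10 share over 10% of theirs, the most being 35.8% for Atp5g2.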

How the data were processed

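RNA was measured in 7 libraries of 5 pooled oocytes, 4 WT and 3 KO by their titles. Per the labels' protocols, cDNA was made with Smart-Seq2, libraries with Nextera XT, which does not mark strand, and reads were 75-base pairs. The authors used cutadapt, FastQC, STAR, DESeq and DESeq2 with build GRCm38 (mm10), per the submitters' processing notes. The read counter is not stated in the sources used. The deposited signal values are read counts scaled by a size factor (0.914 to 1.10). Undoing it gave whole reads, to within 0.05, for 99.96% or more of each library's values. Library totals were 6676076 to 8343915 reads. 

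Groups were compared with limma 3.58.1 (R 4.3.3; trend and robust options) on log2(value + 1). The 19227 genes reaching a value of 1 in 3 or more libraries were tested, with Benjamini-Hochberg adjustment. Fold changes on this scale understate those of low genes. edgeR (4.0.16) and DESeq2 (1.42.0) on recovered reads were alternatives, with others on scaling, pseudocount, filter, libraries, a covariate and a block. The limma fit was also run on simulated counts, with 1 spread setting for all genes and libraries differing only in depth and group. The simulation lacks the differences seen among the KO libraries, and its outcome is not given here, so it is no measure of error in these data. Rows were matched to GENCODE M21 on GRCm38 for identifiers, positions, lengths (median of principal transcripts) and shared 75-base stretches. Gene members and lists were chosen with earlier results of these data known. Values in every library are given for genes that were called or did not overlap, for the smallest p and highest level per kilobase in each complex, for isoforms of 1 subunit, and for the called and most extreme assembly genes.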

Additional observations from a re-analysis of the deposited data

Results flagged for a closer look

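Cox8b, the heart and muscle isoform of complex IV subunit 8, had 1.065 normalised counts in WT 2, which is 1 read, and 0 in WT 1, WT 3 and WT 4, so that WT 2 stood apart from the rest of its group. It was at 0 in the 3 KO libraries. This was 1 of 53 groups of WT values examined for a library far from the others, and chance marks about 1 in 20. A group with a single read is always marked by this rule, so the mark says nothing beyond that read.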

How the results depend on the processing

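The count of members higher in KO was 2 with edgeR, with DESeq2, with no filter on low values and with the replicate block over WT 1 to 3 and KO 1 to 3 (Atp5g3 and Uqcrc1 in each), and 3 after removal of the transcript length trend, an alternative added after seeing the data (with Uqcrb). It was 0 without KO 2 and KO 3 together and 0 with the granulosa marker covariate, and it ranged from 1 to 2 over the fits that leave out 1 library. The count of members lower in KO was 0 in the same 2 fits and ranged from 0 to 1 with 1 library left out. Of the assembly list, the higher count was 1 without the length trend and 0 to 1 with 1 library left out. The lower count was 2 with scaling to library totals, 0 with the covariate, 0 with the replicate block, 0 without it on the same 6 libraries, 0 without the length trend, and 0 to 1 with 1 library left out. The correlations of same-numbered deviations were -0.249, 0.124 and 0.058. They do not show a pairing by replicate number, though so few libraries cannot exclude one. The block called 1010 genes in all against 902 without it on those libraries. Over all genes tested, 594 to 1767 were called with 1 library left out, 98 without KO 2 and KO 3 together, where KO 1 alone is assumed to vary like WT, and 2 with the covariate, against 1291. The cause of these changes was not tested.

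The log2 fold change changed sign in at least 1 alternative for 29 of the 47 members, each within 0.28 of 0 as reported and called in neither setting. Members changing sign numbered 16 without KO 2 and KO 3 together, 17 with the covariate, 9 without the length trend and 18 over the fits that leave out 1 library. Values follow for the 11 whose log2 fold change is given in the text, and the other 18 include Sdha, Atp5a1, Atp5b and Atp5o. Without KO 2 and KO 3 together they were -0.04 for Cox6b1, -0.21 for Cox6b2, 0.50 for Cox7a1, -0.19 for Cox8c, -0.13 for Atp5g2 and -0.10 for Atpif1. With the covariate they were -0.10 for Cox6b1, -0.28 for Cox6b2, 0.33 for Cox7a1, -0.41 for Cox8c, -0.33 for Atp5g2 and -0.03 for Atpif1. Without the length trend they were 0.07 for Cox7a2, 0.03 for Cox7a2l and 0.03 for Cox7b. With 1 library left out the ranges, among the same 11, were -0.19 to 0.00 for Cox4i1, -0.54 to 0.37 for Cox7a1, -0.22 to 0.05 for Cox7a2, -0.14 to 0.04 for Cox7a2l, -0.19 to 0.05 for Cox7b, -0.15 to 0.01 for Atp5g1, -0.08 to 0.14 for Atp5g2 and -0.01 to 0.23 for Atpif1. Depth limits Cox7a1, Cox8b and Cox8c, with 28, 1 and 60 reads in all libraries.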
